A study of Mus musculus with 10 samples.

Results

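The 39 genes of the mouse Hoxa, Hoxb, Hoxc and Hoxd clusters were followed in spermatogenic cells with and without a germline deletion of Ino80. They are all rows of the count files whose symbol is Hox, a cluster letter from a to d and a number, 39 of 23420 gene rows. The 5 Ino80cKO libraries came from testes with a testis-specific deletion of Ino80 made with Stra8-Cre, and the 5 Ino80WT libraries from Ino80WT testes. All were from mice of mixed background at postnatal day 18, and polyA RNA was sequenced from tubules dissociated with enzymes and passed through a 40 micron filter, with no sort described. Stra8-Cre is active in germ cells, so the deletion is directed at the germ cells of the digest and not at its somatic cells. The labels do not say that the libraries are separate animals, so p-values measure the spread between libraries, which may be technical.

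Hox proteins are homeodomain transcription factors that give cells of the embryo their position along the body axis. Within a cluster the genes lie in the order of their paralog groups, and low-numbered genes act towards the head and high-numbered ones towards the tail, the limb ends and the genital tract. Outside the cells that use them, Hox clusters are the textbook targets of polycomb repression: polycomb repressive complex 2 (Ezh2, Eed, Suz12) methylates histone H3 and polycomb repressive complex 1 (Rnf2, Bmi1, Cbx2) ubiquitinates histone H2A. INO80 is an ATP-driven chromatin remodeller, and the series title ties it to a polycomb subunit and to poised chromatin in spermatocytes. Of the Hox genes, Hoxa4 is known in the mouse for transcription in germ cells from meiosis onwards.

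Gene counts per library ranged from 19036178 to 23498321 in Ino80cKO and from 16750609 to 23700094 in Ino80WT. Levels are given as CPM, the counts of a gene divided by the TMM-scaled library size in units of 1e6 counts. The count floor was 3 counts, which equals 0.117 to 0.148 CPM in Ino80cKO libraries and 0.134 to 0.189 CPM in Ino80WT libraries and covers counting error only. Ino80 itself was at 96.1 ± 1.37 CPM in Ino80cKO and 94.96 ± 12.6 CPM in Ino80WT (SD, n = 5 each; log2 fold change 0.02 ± 0.09 SE, edgeR adjusted p = 0.889), so its count over the whole gene does not check the genotype labels.

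The Hox genes were low as a group, and a few of them supplied most of the reads. All 39 together held 5798 counts in Ino80cKO libraries and 6323 in Ino80WT libraries. In single libraries this was 49.1 to 59.8 CPM in Ino80cKO and 61.3 to 74.8 CPM in Ino80WT, and those groups did not overlap. With Hoxa4 left out, the sum was 37.1 to 51.0 CPM in Ino80cKO and 37.4 to 43.7 CPM in Ino80WT, and the groups overlapped. A set of 17 genes were above the floor in all 10 libraries, 31 in at least 1 library and 8 in none. Between 26 and 29 Hox genes were above the floor in an Ino80cKO library, against 22 to 29 in an Ino80WT library. For 11 genes more Ino80cKO than Ino80WT libraries passed the floor, and for 1 gene, Hoxb5, more Ino80WT libraries did. These counts also depend on depth, since the floor equalled 0.117 to 0.148 CPM in Ino80cKO and 0.134 to 0.189 CPM in Ino80WT. The same count over all genes was not made, so they show nothing particular to Hox genes.

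**Figure D1:**
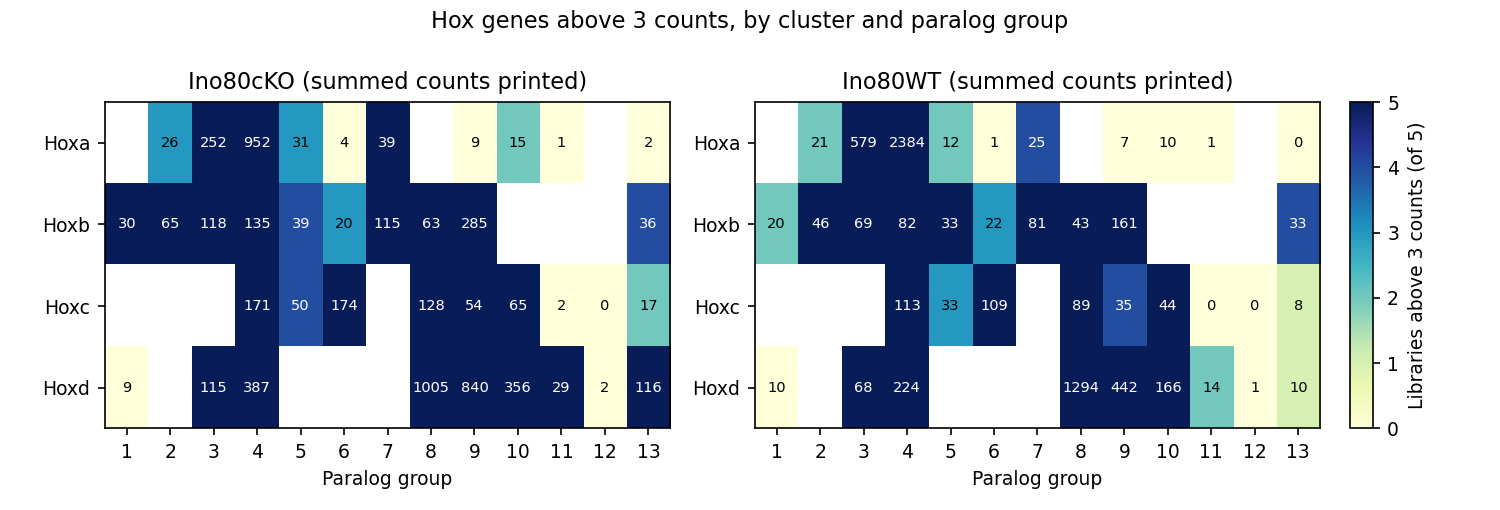
Each coloured cell is a Hox gene, placed by cluster (rows) and paralog group (columns), for Ino80cKO (left) and Ino80WT (right). Colour gives the number of the 5 libraries with more than 3 counts and the printed number is the count summed over the 5 libraries, with white where no gene is shown. The largest sums are those of Hoxa4 (952 and 2384 counts) and Hoxd8 (1005 and 1294 counts).

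Of the 39 genes, 18 passed the filter for testing (minimum count 10) and 21 did not. In edgeR's quasi-likelihood test, fitted over 15265 genes and adjusted by the Benjamini-Hochberg method, 3 Hox genes were higher in Ino80cKO (Hoxd9, Hoxd10, Hoxd13), 3 were lower (Hoxa3, Hoxa4, Hoxd8) and 12 were not called. Among all genes tested 45.9% were called, 18.3% higher and 27.6% lower, so 6 of 18 Hox genes is not above the background. Scaled by library totals, the split over all genes turned to 5484 higher and 2937 lower, and that of the Hox genes was 4 higher and 3 lower. The log2 fold change was above 0 for 15 of the 18, against 51.4% of all genes tested, and its median was 0.45, against 0.02 over all genes tested. The 18 include Hoxd13, which passed the filter through its Ino80cKO libraries alone and so had to differ.

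The groups did not overlap for 1 higher gene, Hoxd13, and 3 lower genes, Hoxa3, Hoxa4 and Hoxd8. Over all genes tested, 32% had groups apart: 9.96% had Ino80cKO wholly above Ino80WT and 22% wholly below. By position along the clusters, the 8 genes of paralog groups 1 to 3 held 1 lower call among 4 tested, the 15 genes of groups 4 to 8 held 2 lower calls among 9 tested, and the 16 genes of groups 9 to 13 held 3 higher calls among 5 tested. The last set summed to 1829 counts in Ino80cKO and 932 in Ino80WT. All 3 of its higher calls lie in Hoxd, and 1 of them is Hoxd13, which had to differ to be tested. Over all genes tested, 18.3% were called higher and 27.6% lower.

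**Figure D2:**
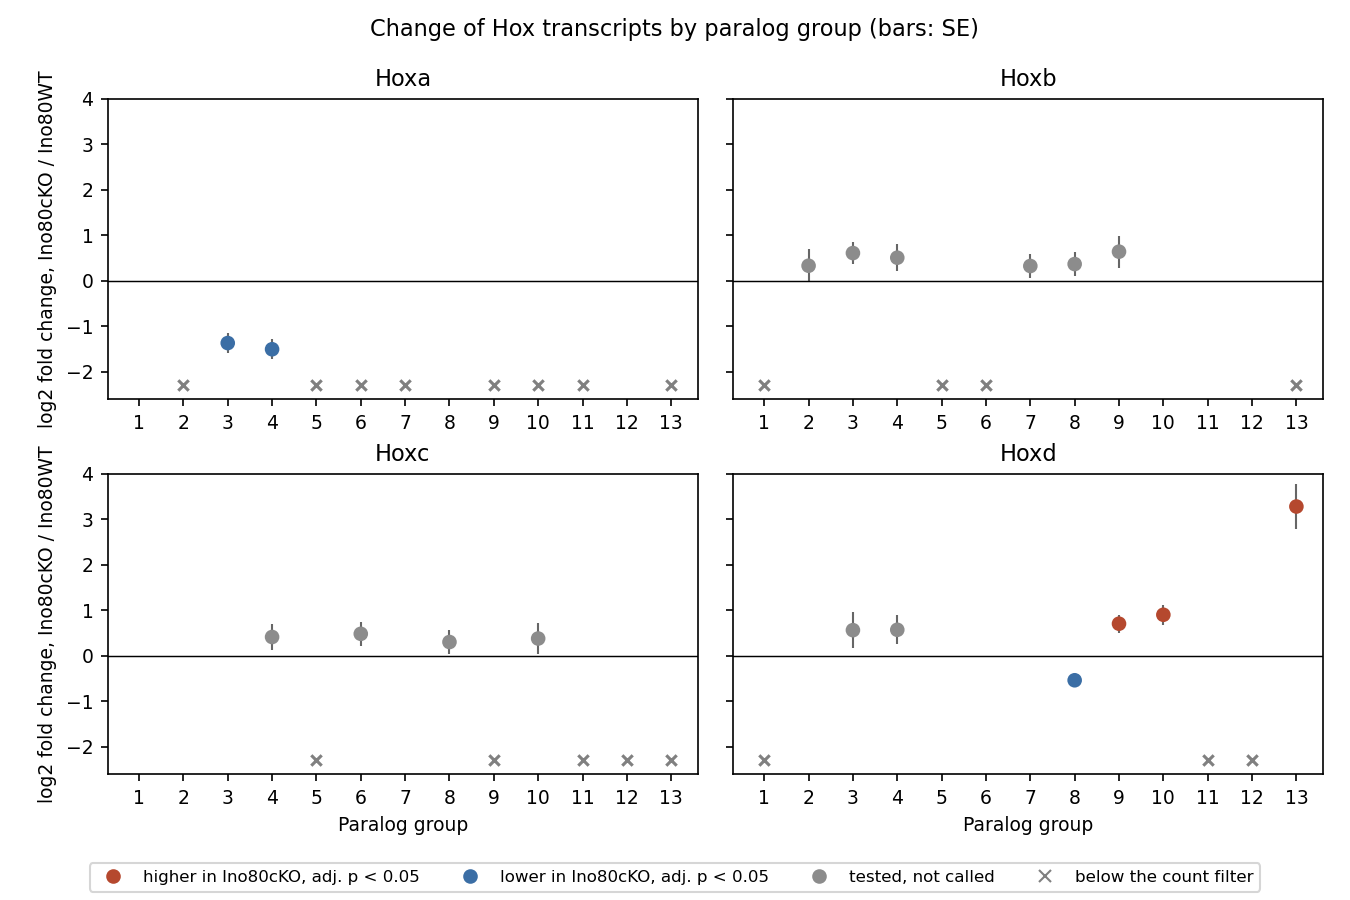
The log2 fold change of Ino80cKO over Ino80WT (vertical axis, bars are the SE) is plotted by paralog group for each cluster. Red points were called higher and blue points lower at an adjusted p below 0.05, grey points were tested and not called, and crosses at the bottom mark genes below the count filter, with no value. In Hoxd, Hoxd8 lies at -0.54 next to Hoxd9 at 0.71.

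Promoters are shown for the 5 called genes with a RefSeq entry, which include the Hoxd neighbours that differ in direction; Hoxa4 is not shown. Such entries were found for 22 of the 39 genes (24 entries, assembly GRCm38.p6). Each sequence is the 250 bases before the start of the RefSeq entry, 5′ to 3′ on the strand of the gene. CG dinucleotides are in capitals, since polycomb targets of mammals are typically rich in them. Other annotated starts exist: the RefSeq span of Hoxd10 begins at 74684273, upstream of its window, and the GENCODE span of Hoxa3 takes in its window.
Hoxd13 (chr2:74667975-74668224, plus strand): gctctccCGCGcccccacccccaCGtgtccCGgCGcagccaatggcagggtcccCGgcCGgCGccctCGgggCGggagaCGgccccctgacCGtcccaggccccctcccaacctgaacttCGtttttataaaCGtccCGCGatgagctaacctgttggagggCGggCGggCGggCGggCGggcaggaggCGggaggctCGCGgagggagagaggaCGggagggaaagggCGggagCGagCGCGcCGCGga
Hoxd10 (chr2:74691641-74691890, plus strand): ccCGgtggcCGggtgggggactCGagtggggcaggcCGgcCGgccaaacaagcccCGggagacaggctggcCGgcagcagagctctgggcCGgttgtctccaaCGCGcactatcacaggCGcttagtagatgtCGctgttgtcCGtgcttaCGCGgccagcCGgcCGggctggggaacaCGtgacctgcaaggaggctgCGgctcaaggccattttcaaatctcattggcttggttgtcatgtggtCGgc
Hoxd9 (chr2:74697513-74697762, plus strand): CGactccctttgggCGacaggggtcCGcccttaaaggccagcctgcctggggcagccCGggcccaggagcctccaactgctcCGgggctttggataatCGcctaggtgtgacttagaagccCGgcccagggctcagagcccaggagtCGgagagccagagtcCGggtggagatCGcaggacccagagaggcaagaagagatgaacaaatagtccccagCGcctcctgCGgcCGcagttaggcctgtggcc
Hoxd8 (chr2:74704365-74704614, plus strand): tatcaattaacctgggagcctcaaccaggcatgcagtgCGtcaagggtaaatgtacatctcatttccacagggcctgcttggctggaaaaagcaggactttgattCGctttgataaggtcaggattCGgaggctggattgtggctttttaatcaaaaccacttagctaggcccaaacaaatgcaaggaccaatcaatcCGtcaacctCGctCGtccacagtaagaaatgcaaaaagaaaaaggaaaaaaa
Hoxa3 (chr6:52213068-52213317, minus strand): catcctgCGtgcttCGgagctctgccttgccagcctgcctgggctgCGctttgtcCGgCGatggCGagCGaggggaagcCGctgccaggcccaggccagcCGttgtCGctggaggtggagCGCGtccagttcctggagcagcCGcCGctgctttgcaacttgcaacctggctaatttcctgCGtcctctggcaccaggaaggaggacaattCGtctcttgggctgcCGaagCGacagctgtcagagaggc
The Hoxd13 window held 31 CG dinucleotides, a number reached by 5.19% of the 32841 mouse entries. The Hoxd10 window held 20 (reached by 18%), that of Hoxa3 18 (21.7%), that of Hoxd9 13 (31.5%) and that of Hoxd8 6 (50.4%). The higher genes of Hoxd had 13 to 31 and the lower Hoxd8 had 6, but the lower Hoxa3 had 18, more than the higher Hoxd9. A link between CG number and direction was not tested. Over the 24 Hox entries the median was 12.5, with a range of 2 to 35, and over all entries it was 6. The motif TGATNNAT, a core of sites bound by PBX and HOX proteins together, was searched on both strands. It was in 4 of 24 Hox entries (16.7%), in 7.7% of all entries and in none of the windows printed.

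Hoxa (chromosome 6, 52155367 to 52260880 in mm10) had a lower sum in Ino80cKO, and it was the cluster with most reads in Ino80WT only, since Hoxd led in Ino80cKO. Its 11 genes summed to 12.6 ± 3.10 CPM in Ino80cKO and 31.9 ± 7.80 CPM in Ino80WT (SD, n = 5 each), and the range of 8.20 to 16.4 CPM in Ino80cKO did not reach that of 24.8 to 44.1 CPM in Ino80WT. Hoxa3 and Hoxa4 were the members tested, and both fell. This pair supplied most of the cluster sum in both groups, so the lower sum is theirs and does not describe the other members.

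Hoxa4 was at 8.73, 8.20, 5.19, 9.63 and 12.0 CPM in Ino80cKO replicates 1 to 5, against 21.3, 21.6, 35.4, 17.6 and 28.3 CPM in Ino80WT replicates 1 to 5. Every Ino80cKO library was below every Ino80WT library. The level averaged 8.74 ± 2.45 CPM in Ino80cKO and 24.8 ± 7.05 CPM in Ino80WT (SD, n = 5 each). The log2 fold change was -1.51 ± 0.22 (SE), 2.84-fold lower, with edgeR adjusted p = 0.000282 and a 95% interval of the ratio of 0.251 to 0.494. Per kilobase of exon it ranked first among the 39 genes in both groups, at 5.48 CPM per kilobase in Ino80cKO and 15.6 in Ino80WT.

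Hoxa3, which in the mouse acts in the pharyngeal arches and the thymus, was at 2.55, 1.46, 1.73, 2.996 and 2.87 CPM in Ino80cKO replicates 1 to 5, against 5.92, 5.04, 8.02, 5.65 and 5.30 CPM in Ino80WT. The groups did not overlap. The mean was 2.32 ± 0.69 CPM in Ino80cKO and 5.98 ± 1.19 CPM in Ino80WT, a log2 fold change of -1.37 ± 0.21 SE, with edgeR adjusted p = 0.000331. Hoxa3 (chromosome 6, 52169062 to 52213336, minus strand) has a span that covers Hoxa4 (52189671 to 52191753, minus strand), Hoxa5 and Hoxa6. Antisense transcripts overlap 25.4% of its exon bases and 16% of those of Hoxa4. No source used here gives the strand setting of the counting, so reads of these genes and of their antisense partners cannot be told apart.

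All other Hoxa genes were below the filter. Hoxa6, Hoxa9, Hoxa11 and Hoxa13 were under the floor in every library. Hoxa2 summed to 26 counts over the Ino80cKO libraries and 21 over the Ino80WT libraries, Hoxa5 to 31 and 12, Hoxa7 to 39 and 25, and Hoxa10 to 15 and 10. Hoxa5, directly next to the falling pair, was above the floor in 3 Ino80cKO and 2 Ino80WT libraries.

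Hoxd (chromosome 2, 74668225 to 74765142) held calls in both directions. Its 9 genes summed to 26.04 ± 3.91 CPM in Ino80cKO and 23.2 ± 1.54 CPM in Ino80WT (SD, n = 5 each). Behind these sums Hoxd13, Hoxd10 and Hoxd9, at the end with the high paralog numbers, were higher in Ino80cKO, and Hoxd8 beside them was lower.

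Hoxd13, which shapes digits and the genital tubercle in the mouse embryo, had 30, 14, 17, 39 and 16 counts in Ino80cKO replicates 1 to 5, against 2, 3, 4, 1 and 0 counts in Ino80WT. All 5 Ino80cKO libraries but only 1 Ino80WT library passed the floor. In CPM this was 1.07 ± 0.52 in Ino80cKO and 0.102 ± 0.078 in Ino80WT (SD, n = 5 each), a log2 fold change of 3.28 ± 0.50 SE. The fold was 9.74 with a 95% interval of 4.58 to 20.7 (edgeR adjusted p = 0.0003), and it rests on 10 counts in all of Ino80WT. Called genes at least 2-fold higher were 0.74% of all genes tested. That share does not measure how unusual Hoxd13 is, since it passed the filter through its Ino80cKO libraries alone. Per kilobase Hoxd13 ranked 11th of 39 in Ino80cKO and 29th in Ino80WT.

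Hoxd10, which acts in the lumbar spinal cord and the limb, was at 3.84, 3.88, 3.16, 3.29 and 1.93 CPM in Ino80cKO replicates 1 to 5, against 1.57, 1.46, 1.32, 2.29 and 1.97 CPM in Ino80WT. Ino80cKO 5 lay below Ino80WT 4 and 5, so the groups overlapped, and the other 4 Ino80cKO libraries were above all of Ino80WT. The log2 fold change was 0.90 ± 0.22 SE (1.87-fold, 95% interval 1.34 to 2.60, edgeR adjusted p = 0.00558).

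Hoxd9, its neighbour and a limb and spinal cord gene too, was at 9.59, 6.35, 7.56, 8.60 and 6.08 CPM in Ino80cKO replicates 1 to 5, against 6.42, 5.44, 3.16, 4.03 and 4.47 CPM in Ino80WT. Ino80WT 1 exceeded Ino80cKO 2 and 5, so these groups overlapped as well. The log2 fold change was 0.71 ± 0.19 SE (1.63-fold, 95% interval 1.22 to 2.18, edgeR adjusted p = 0.0107). Ino80cKO 1 and Ino80WT 4 were each the library of their group in which most tested Hox genes peaked (9 and 7 of 18). Without that pair, an alternative added after seeing the data, the Hoxd9 log2 fold change was 0.58 and its call was lost (edgeR adjusted p = 0.0540), while Hoxb3 and Hoxb9 were called higher (edgeR adjusted p = 0.0348 and 0.0327).

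Hoxd8, the paralog group 8 gene expressed in the embryonic trunk, was at 8.73, 9.21, 8.55, 10.4 and 9.29 CPM in Ino80cKO replicates 1 to 5, against 12.97, 13.7, 15.8, 12.4 and 12.1 CPM in Ino80WT. The groups did not overlap. The mean was 9.24 ± 0.73 CPM in Ino80cKO and 13.4 ± 1.498 CPM in Ino80WT, a log2 fold change of -0.54 ± 0.10 SE (1.45-fold lower, edgeR adjusted p = 0.00141). Hoxd8 had the smallest SE of the called Hox genes. Per kilobase it was the second gene in Ino80WT at 4.89 and the third in Ino80cKO at 3.37, where Hoxd9 at 3.57 stood above it, while in Ino80WT Hoxd9 was at 2.20. In Ino80cKO the gap between Hoxd9 and Hoxd8 is small beside the spread between libraries.

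Hoxd4 (3.48 ± 1.27 CPM in Ino80cKO, 2.35 ± 0.84 CPM in Ino80WT) and Hoxd3 (1.03 ± 0.44 and 0.69 ± 0.35 CPM) were tested and not called, with log2 fold changes of 0.57 ± 0.32 and 0.56 ± 0.40 SE. Of their exon bases, 52.3% and 62.3% overlap each other or another same-strand transcript, so their reads may have been split or left out. Without Ino80cKO 5, Hoxd4 was called higher (edgeR adjusted p = 0.0442). Hoxd11 summed to 29 counts in Ino80cKO and 14 in Ino80WT. It lies between Hoxd10 and Hoxd13 with Hoxd12, which summed to 2 and 1 counts. Hoxd1 and Hoxd12 were under the floor in every library.

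**Figure D3:**
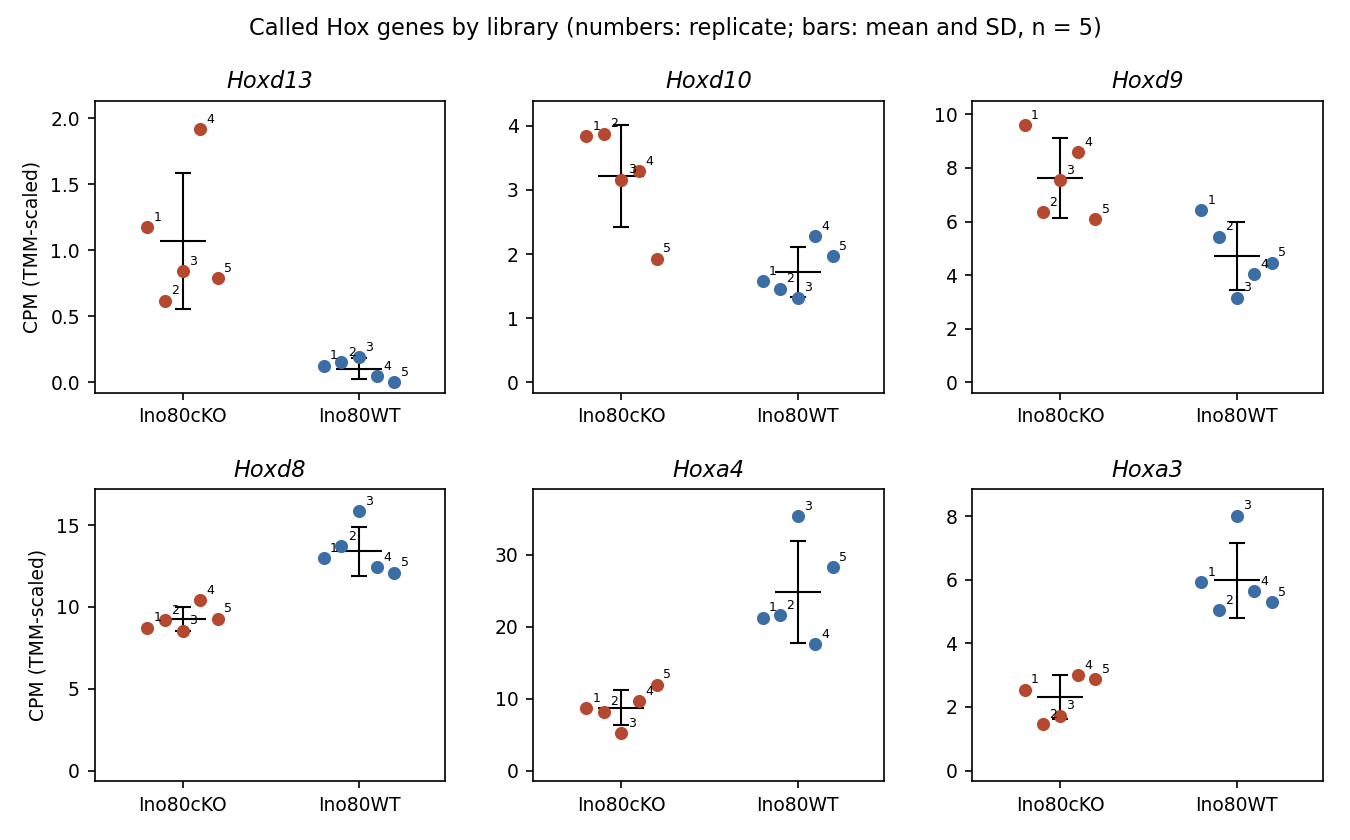
The 6 called genes are plotted by library in TMM-scaled CPM on axes of their own, Ino80cKO left and Ino80WT right, with the replicate number beside each point and bars for the mean and SD (n = 5). Hoxd13, Hoxd8, Hoxa4 and Hoxa3 have groups that do not overlap, and Hoxd10 and Hoxd9 do.

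Single genes were also compared by exact permutation of the libraries (two-sided, on CPM), which with 10 libraries can give no p below 0.00794. Hoxa3, Hoxa4, Hoxd8 and Hoxd13 gave that value, which is fixed once groups do not overlap, and Hoxd9 and Hoxd10 gave exact p = 0.0238. These 6 were taken because the fit had called them on the same libraries, and Hoxd13 had to differ to be tested at all, so the exact values describe the separation and add no support. Among the 13 untested members above the floor in some library, the lowest exact p was 0.135.

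Hoxb (chromosome 11, 96194316 to 96368254) had no call. Its 10 genes summed to 8.22 ± 1.19 CPM in Ino80cKO and 6.04 ± 1.66 CPM in Ino80WT (SD, n = 5 each). Of the 6 tested genes (Hoxb2, Hoxb3, Hoxb4, Hoxb7, Hoxb8, Hoxb9) every log2 fold change was above 0, at 0.33 to 0.64, with adjusted p from 0.0515 to 0.474 in edgeR.

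Hoxb9, a thoracic gene of the embryo and the top gene of its cluster, was at 4.11, 2.25, 1.93, 2.70 and 1.73 CPM in Ino80cKO replicates 1 to 5, against 0.755, 1.26, 1.13, 3.09 and 1.85 CPM in Ino80WT. The groups overlapped, with Ino80cKO 1 and Ino80WT 4 the highest of each. Its log2 fold change was 0.64 ± 0.35 SE (edgeR adjusted p = 0.149), and a fold between 0.921 and 2.64 lay within its 95% limits. Hoxb3 came nearest to a call, at 1.09 ± 0.19 CPM in Ino80cKO and 0.69 ± 0.21 CPM in Ino80WT (log2 fold change 0.61 ± 0.24 SE, edgeR adjusted p = 0.0515). The antisense gene Hoxb3os overlaps 52.9% of its exon bases.

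Leaving out single libraries changed these calls. Without Ino80WT 4, Hoxb3 and Hoxb9 were called higher (edgeR adjusted p = 0.0223 and 0.0183). Hoxb3 was also called without Ino80cKO 4 (edgeR adjusted p = 0.0433) and Hoxb4 without Ino80WT 1 (edgeR adjusted p = 0.0287). The 4 untested genes Hoxb1, Hoxb5, Hoxb6 and Hoxb13 summed to 30, 39, 20 and 36 counts in Ino80cKO and 20, 33, 22 and 33 counts in Ino80WT. No Hoxb gene was under the floor in every library.

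Hoxc (chromosome 15, 102921131 to 103036856) had no call either. Its 9 genes summed to 6.02 ± 1.28 CPM in Ino80cKO and 4.48 ± 0.74 CPM in Ino80WT (SD, n = 5 each). The 4 tested genes, Hoxc4, Hoxc6, Hoxc8 and Hoxc10, had log2 fold changes of 0.30 to 0.48 and adjusted p from 0.146 to 0.384 in edgeR.

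Hoxc6, which marks the start of the thorax in the embryo, was at 1.65, 1.68, 2.17, 1.38 and 1.09 CPM in Ino80cKO replicates 1 to 5, against 1.32, 1.76, 0.802, 1.03 and 0.775 CPM in Ino80WT. The groups overlapped. The log2 fold change was 0.48 ± 0.26 SE (edgeR adjusted p = 0.146), the 95% limits of the fold were 0.943 and 2.07, and without Ino80WT 2 it was called (edgeR adjusted p = 0.0445). Hoxc5 and Hoxc9 summed to 50 and 54 counts in Ino80cKO and to 33 and 35 counts in Ino80WT, just under the filter. Hoxc13 summed to 17 counts in Ino80cKO and 8 in Ino80WT, Hoxc11 to 2 and 0, and Hoxc12 had 0 counts in all 10 libraries, which allows up to 3 counts in each.

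The 21 untested genes together held 456 counts in Ino80cKO and 319 in Ino80WT. Mean CPM was higher in Ino80cKO for 16 of them and in Ino80WT for 4. That direction count was not made over all genes below the filter, so it shows nothing particular to these Hox genes. Fitted without a count filter, where 34.1% of 20246 genes were called, edgeR called 0 of the 20 with any count, and 0 had an unadjusted p below 0.05. The exact tests on 13 of them gave 0 below 0.05 as well.

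Transcripts and genes around the clusters were looked up next. Besides the Hox genes, 12 counted genes lie inside the cluster spans. Of these, 2 were tested, 1 lower and 1 not called, beside 27.6% of all genes tested called lower. A list of Evx and noncoding genes of the clusters, which does not take in all of those 12, had 7 members in the files. Of these 7, 1 passed the filter and it fell. This was 1700109F18Rik (Hoxd3os1, chromosome 2, 74710044 to 74716130), which lies in Hoxd beyond Hoxd8 and overlaps the start of the annotated Hoxd3 and Hoxd4 on the opposite strand. It was at 3.05, 3.57, 2.52, 4.81 and 5.19 CPM in Ino80cKO replicates 1 to 5, against 5.92, 8.21, 13.9, 5.29 and 8.76 CPM in Ino80WT. The groups did not overlap (log2 fold change -1.14 ± 0.27 SE, edgeR adjusted p = 0.00545). In Hoxd, then, the transcripts that fell are neighbours, Hoxd8 and this antisense gene. On the high-numbered side Hoxd9 was called higher. On the low-numbered side Hoxd3 and Hoxd4 had positive log2 fold changes but were not called (edgeR adjusted p = 0.260 and 0.158), and Hoxd1 was below the filter.

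Hotair, the antisense RNA of Hoxc, and Hoxa11as had 0 counts in all 10 libraries. Evx1 and Evx2, even-skipped homologues beyond the high-numbered ends of Hoxa and Hoxd, summed to 12 and 1 counts in Ino80cKO and to 3 and 0 in Ino80WT. The span of 5730457N03Rik (52308389 to 52314832) overlaps that of Evx1 (52313498 to 52318389), so reads of the shared part may have been split or left out. 5730457N03Rik summed to 100 counts in Ino80cKO and 27 in Ino80WT without overlap of the libraries. Among all genes tested, 9.96% had Ino80cKO wholly above Ino80WT, but 5730457N03Rik was below the filter and is named after its values were seen.

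Of the 24 genes nearest to the cluster ends, 15 were tested, of which 1 was higher and 3 lower, against 18.3% and 27.6% of all genes tested. Their log2 fold changes had a median of -0.04. Mtx2, the mitochondrial import gene beyond the low-numbered end of Hoxd, fell to 86.5 ± 3.84 CPM in Ino80cKO, against 122.7 ± 12.0 CPM in Ino80WT (log2 fold change -0.50, edgeR adjusted p = 0.000266). Ttll6, a tubulin glutamylase beside Hoxb, fell by 1.24 on the log2 scale and Skap2, an adaptor protein beside Hoxa, fell by 0.38 (edgeR adjusted p = 0.00118 each). Calcoco1, a coactivator and autophagy receptor beside Hoxc, was 0.19 higher on that scale (edgeR adjusted p = 0.0311), a call lost without Ino80cKO 2, Ino80cKO 4, Ino80WT 4 or Ino80WT 5 (edgeR adjusted p = 0.0519 to 0.0725).

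Hox proteins bind DNA with cofactors of the TALE homeodomain class, PBX, MEIS and PKNOX. All 9 listed cofactor genes were tested: 3 were higher, 2 lower and 4 not called, so 5 of 9 were called beside 45.9% of all genes tested. Their median on the log2 scale was 0.24. Pbx4, a cofactor known in the mouse for its expression in the testis, fell to 24.8 ± 5.65 CPM in Ino80cKO, against 65.8 ± 13.5 CPM in Ino80WT (SD, n = 5 each; log2 fold change -1.41 ± 0.17 SE, edgeR adjusted p = 9.9e-05). Pknox1 fell to 48.6 ± 5.81 CPM in Ino80cKO, against 69.2 ± 10.6 CPM in Ino80WT (edgeR adjusted p = 0.00347). Pbx3 and Pbx2 rose by 0.35 and 0.24 on the log2 scale (edgeR adjusted p = 0.00551 and 0.0295). The Pbx2 call was lost without Ino80cKO 2, Ino80cKO 5, Ino80WT 2, Ino80WT 3 or Ino80WT 5 (edgeR adjusted p = 0.0608 to 0.0727).

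Of 25 listed regulators of Hox clusters, 24 were in the files and 20 were tested; 7 were higher, 5 lower and 8 not called. Of all genes tested, 18.3% were higher and 27.6% lower. Their median on the log2 scale was 0.11. The genes that fell were Psip1 (LEDGF, a chromatin tether of MLL proteins), the polycomb repressive complex 2 subunits Ezh2 and Eed, and the polycomb repressive complex 1 subunits Rnf2 and Bmi1. Psip1 fell by 0.89 on the log2 scale to 446.1 CPM in Ino80cKO, against 827.6 CPM in Ino80WT (edgeR adjusted p = 9.01e-05). Ezh2, Eed and Bmi1 fell by 0.36, 0.31 and 0.25 (edgeR adjusted p = 0.00195, 0.00109 and 0.00504). Scaled by library totals, Psip1 and Ezh2 kept their calls, and Eed, Bmi1 and Rnf2 lost theirs (edgeR adjusted p = 0.0852, 0.338 and 0.334). Among the higher genes, the polycomb gene Cbx2 and the H3 demethylase Kdm6a were 0.38 and 0.34 higher on that scale (edgeR adjusted p = 0.00479 and 0.00603). Also called higher were the H3 methyltransferase Mll1 (Kmt2a), the demethylase Kdm6b, the retinoic acid receptor Rara, the retinoic acid hydroxylase Cyp26b1 and the insulator protein Ctcf. Of these, Mll1 was not called without Ino80cKO 3, Ino80cKO 4 or Ino80WT 3 (edgeR adjusted p = 0.0553 to 0.0638), nor Ctcf without Ino80cKO 2, Ino80cKO 5, Ino80WT 2 or Ino80WT 4 (edgeR adjusted p = 0.0507 to 0.0706). The third core subunit of polycomb repressive complex 2, Suz12, was not called.

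**Figure D4:**
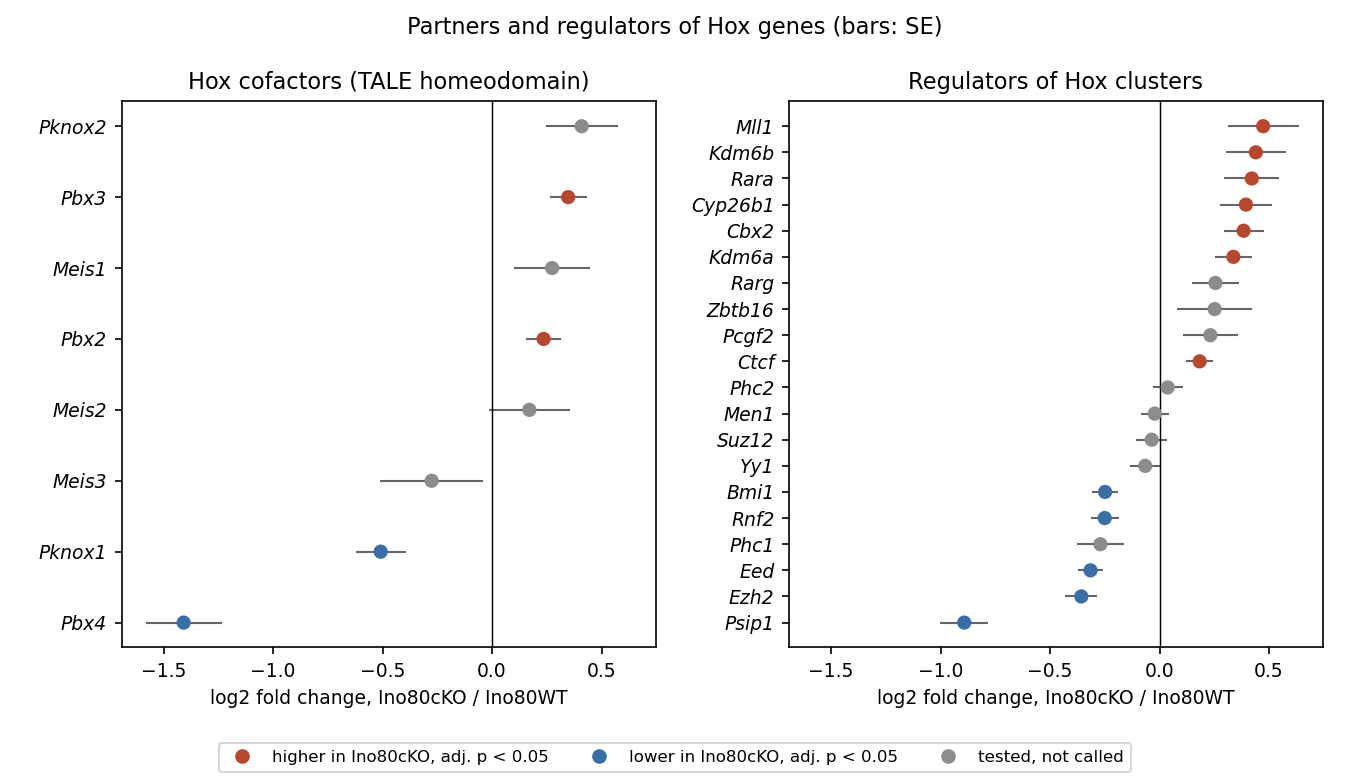
Points are log2 fold changes of Ino80cKO over Ino80WT (horizontal axis, bars are the SE) for Hox cofactors (left) and 20 tested regulators of Hox clusters (right). Red points were called higher, blue points lower and grey points not called. Pbx4 at -1.41 and Psip1 at -0.89 lie farthest to the left.

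Markers of germ cell stages and of other cell types moved between the same libraries. In bulk RNA, fewer cells of a type and less RNA per cell cannot be told apart. All 15 pachytene spermatocyte markers were lower in Ino80cKO, and their summed level was 1353 to 2334 CPM in Ino80cKO and 3706 to 6379 CPM in Ino80WT. Hoxa3, Hoxa4, Hoxd8 and 1700109F18Rik peaked in Ino80WT 3, as this list did, and Hoxa4, Hoxd8 and 1700109F18Rik were lowest in Ino80cKO 3, as it was. Within groups the list was also highest in Ino80cKO 5 and lowest in Ino80WT 4, as were Hoxa4 and 1700109F18Rik. Hoxa3 and Hoxd8 did not follow it there: both were highest in Ino80cKO 4, and they were lowest in Ino80WT 2 and Ino80WT 5. The part of pachytene spermatocytes in the lower Hox genes was not tested.

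Over all genes tested, 18.3% were higher and 27.6% lower. Of other cell types, 7 of 12 markers of peritubular and stromal cells were higher, 0 were lower and none was at 0, with sums of 1180 to 1683 CPM in Ino80cKO and 980 to 1220 CPM in Ino80WT. Of 15 Sertoli markers, 7 were higher and 0 lower (4740 to 6266 CPM in Ino80cKO, 3214 to 4890 in Ino80WT), as were 5 of 7 tested Leydig markers (148.5 to 249.1 and 91.5 to 160.2 CPM; Cyp11b1 at 0) and 7 of 12 macrophage and leukocyte markers (108.4 to 144.5 and 63.8 to 94.0 CPM). Of 15 spermatogonial markers 5 were higher and 1 lower, with sums of 995 to 1152 CPM in Ino80cKO and 796 to 1025 CPM in Ino80WT. Of 8 endothelial markers 0 were called (57.9 to 100.2 and 54.8 to 82.8 CPM). Of 13 epididymal and efferent duct markers 5 were tested and 1 was higher (4.06 to 6.70 and 3.59 to 6.51 CPM), with Lcn5, Lcn9 and Crisp1 at 0. Ino80cKO 1, the highest of its group for 9 of 18 tested Hox genes, was also the highest of its group in the stromal sum. Among Ino80WT libraries this did not hold: Ino80WT 4 peaked for 7 of the 18 but stood at 1185 CPM in that sum, and Ino80WT 5, with the highest sum, peaked for 0. The part of these cells in the higher Hox genes was not tested.

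**Figure D5:**
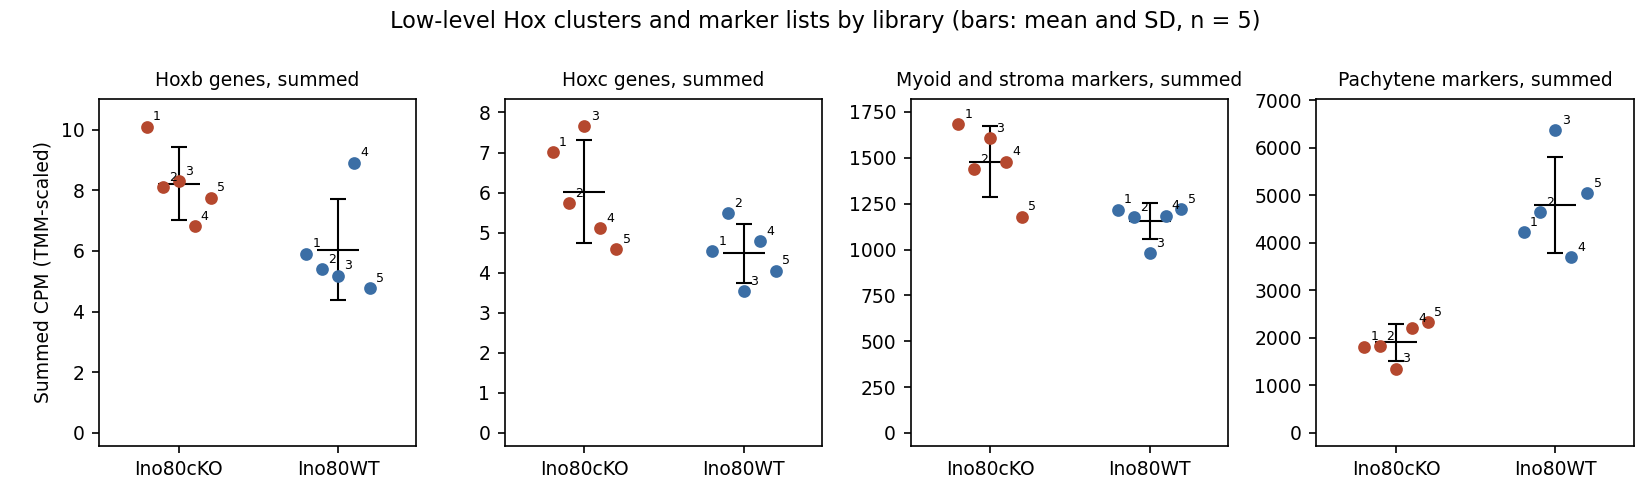
Summed TMM-scaled CPM per library of all Hoxb genes, all Hoxc genes, 12 peritubular and stromal markers and 15 pachytene markers, Ino80cKO left and Ino80WT right, with the replicate number beside each point and bars for the mean and SD (n = 5). The Hoxb, Hoxc and stromal sums overlap between the groups, and the pachytene sums do not.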

How the data were processed

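The authors deposited whole-number counts of reads per gene, not normalized, as 1 table per library per the file contents. TopHat2, HTSeq, DESeq2 and mm10 are named without versions or roles per the submitters' processing notes; no source used here gives the annotation or the strand setting. Rows that name no gene held 35.5% to 44.0% of reads (18.4% to 26.3% not unique) and were not used, and Rn45s took 1.60% to 7.08% of gene counts.

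The test was edgeR 4.0.16 (R 4.3.3). A filterByExpr filter (minimum count 10, minimum total 15) left 15265 genes, TMM factors scaled the libraries, and glmQLFit with robust dispersions and genotype alone in the model was followed by glmQLFTest. Called genes had adjusted p (Benjamini-Hochberg, over all genes tested) below 0.05. Each SE is the log2 fold change divided by the square root of F, and intervals are at 95%. No pair of libraries was a duplicate (lowest chi-square per degree of freedom 8.93). DESeq2 1.42.0 was an alternative; limma 3.58.1 is loaded by edgeR. Other alternatives were library totals, RLE size factors, Rn45s left out, no filter, a minimum count of 50, dispersions not robust, a replicate block and libraries left out.

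Positions and exon overlaps come from GENCODE M21 and RefSeq on mm10. Members and lists were chosen with earlier results of these data known. Full values are given for called Hox genes and the highest gene of each cluster by mean CPM, and in other lists for called genes with the smallest adjusted p, up to 6. The labels give no litter, date or batch. Single genes not reported here are still part of the totals and counts.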

Additional observations from a re-analysis of the deposited data

How the results depend on the processing

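The lower calls of Hoxa3, Hoxa4 and Hoxd8 held in every alternative. The higher calls of Hoxd10 and Hoxd13 held in every alternative that tested them. Hoxd9 was lost only without Ino80cKO 1 and Ino80WT 4, a setting added after seeing the data. Scaled by library totals, under which all genes had a median of 0.19 on the log2 scale, the Hox median was 0.62, 5484 genes were called higher and 2 regulators, Psip1 and Ezh2, were lower. With a minimum count of 50, 5 Hox genes were tested, 1 was higher and the median was -0.51. Without Ino80WT 1 and 2, 5 Hox genes were higher, adding Hoxb4 and Hoxc6. Leaving out 1 library at a time gave 3 to 5 higher Hox genes (5 without Ino80WT 4), 3 lower, and a median of 0.37 to 0.54. Hoxb3 was called with library totals, RLE factors, Rn45s left out or dispersions not robust (edgeR adjusted p = 0.0176 to 0.0496). Same-numbered libraries did not deviate together (correlations -0.52 to 0.215, 2 libraries correlating best with their own number), and with the replicate block the same 6 Hox genes were called (median 0.47). Depth limits the 21 Hox genes below the filter, whose sums reach at most 54 counts in Ino80cKO and 35 in Ino80WT. Without the pair Ino80cKO 1 and Ino80WT 4, Bmi1 was not called (edgeR adjusted p = 0.0622). With the replicate block Pbx2, Cyp26b1, Ctcf and Calcoco1 were not called (edgeR adjusted p = 0.0537 to 0.0864).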
